A study of Rattus norvegicus with 2 samples.

Results

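The genes described here are 10 genes of the mammalian circadian clock, Arntl, Clock, Per1, Per2, Per3, Cry1, Cry2, Nr1d1, Nr1d2 and Dbp, chosen by name and not by their values, out of 8898 genes that had a symbol on the array. They were measured by 11 of the 41009 probes, 1 probe a gene and 2 for Per3, each printed on a single spot. Arntl is listed as Bmal1 in the current RefSeq gene table. Whole blood RNA of rats given lavender oil (LO) and of control rats was pooled within each group, 6 male rats a pool, and the 2 pools were hybridised together on 2 Agilent rat whole genome arrays. LO rats received 5 mg/kg of oil in 10% ethanol and control rats 10% ethanol alone (0 mg/kg of oil), into the stomach once daily around midday for 13 days, and blood was collected on day 14. The age given for the rats, 7 weeks, is from before the 13 days of dosing and not from sampling. They were kept under 12 h of light and 12 h of darkness. The strain is Wistar in one field of the labels and F334 in another, and the paper gives Fischer F334. The blood came from the heart or from the heart and portal vein, depending on the source. The hour of blood collection, on which clock gene levels depend, was not given in the sources used here.

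Array 1 carried the LO pool in Cy5 (red) and the control pool in Cy3 (green), and array 2 carried the same RNA pools with the dyes exchanged. Both arrays together were therefore 1 replicate of the comparison. No spread between rats could be measured, no test between LO and control rats was possible, and the calls below rest on the p that the scanner software's error model gives a single spot, without adjustment for the number of probes. In pooled blood, fewer cells of a type and less RNA per cell cannot be told apart.

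The clock is a feedback loop of transcription. ARNTL (BMAL1) and CLOCK pair and activate genes through E-boxes, the PER and CRY proteins made from those genes inhibit the pair, and the nuclear receptors NR1D1 and NR1D2 (REV-ERB alpha and beta) repress Arntl through ROR elements. DBP is an output factor that activates genes through D-boxes, and blood cells are known to carry this oscillator.

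The motifs through which the clock proteins are known to act were searched in the promoters of the members, and 3 windows with a match are printed, from 250 bases before to 50 bases after the annotated start (RefSeq, build GRCr8), 5′ to 3′ on the strand of the gene with motif matches in capitals. Arntl (chr1:176766078-176766377, plus strand) held 2 ROR elements, GTAGGTTA beginning 53 bases and GTAGGTCA beginning 17 bases before the start. Per2 (chr9:99496944-99497243, minus strand) held a D-box, TTATGTAA, 192 bases before the start and an E-prime box, CACGTT, 62 bases before it. The second annotated start of Nr1d1 (chr10:84229405-84229704, minus strand) had an E-box, CACGTG, 191 bases before it.
Arntl: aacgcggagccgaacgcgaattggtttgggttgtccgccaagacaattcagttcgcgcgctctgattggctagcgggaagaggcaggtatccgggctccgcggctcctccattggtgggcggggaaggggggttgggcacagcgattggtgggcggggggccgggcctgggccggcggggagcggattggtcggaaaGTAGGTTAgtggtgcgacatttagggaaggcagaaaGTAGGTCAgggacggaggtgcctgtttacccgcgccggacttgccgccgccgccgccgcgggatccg
Per2: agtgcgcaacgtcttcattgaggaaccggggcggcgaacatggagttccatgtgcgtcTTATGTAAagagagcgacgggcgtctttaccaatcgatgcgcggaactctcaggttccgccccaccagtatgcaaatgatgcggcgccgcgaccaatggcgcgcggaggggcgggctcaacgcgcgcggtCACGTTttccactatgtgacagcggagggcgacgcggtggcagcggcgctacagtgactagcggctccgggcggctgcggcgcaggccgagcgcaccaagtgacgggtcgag
Nr1d1, second start: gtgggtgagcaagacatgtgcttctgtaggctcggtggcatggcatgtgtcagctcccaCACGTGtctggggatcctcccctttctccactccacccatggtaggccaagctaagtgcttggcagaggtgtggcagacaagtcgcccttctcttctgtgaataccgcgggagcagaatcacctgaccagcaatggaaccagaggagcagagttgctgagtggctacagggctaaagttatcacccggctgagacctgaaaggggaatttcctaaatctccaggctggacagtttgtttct

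Windows were found for 9 of the 10 genes, 11 windows in all, and 5 windows of 4 genes held a match on either strand. The other matches were AACGTG, the reverse strand of an E-prime box, 212 bases before the start in Cry2 and 174 bases before the first start of Nr1d1. The windows of Clock, Per1, Per3, Nr1d2 and Dbp held none of these letters. Over 33469 rat windows of the same length, an E-box (CACGTG) was found in 6.42%, an E-prime box (CACGTT) in 4.83%, a D-box (TTATGTAA) in 0.893% and a ROR element (GTAGGTNA) in 2.0%. The share of windows with any of these motifs was not computed, so the 5 of 11 windows have no background here. Each element was searched as these letters only, so other forms of it were not counted in the members or in all windows. A match is a description of the letters in the window and was not compared with binding.

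No clock gene was called higher or lower in the LO pool. The call required a p under 0.01 on both arrays with the same pool higher on both, and 0 of the 11 clock probes met it in either direction, beside 4 of 41009 probes higher in LO (0.00975%) and 5 lower (0.0122%). The paper reports far more changed genes from its dye-swap selection than this call returned. No clock probe had a spot-model p under 0.05 on both arrays towards the same pool either, beside 18 of the 41009 probes. With so few probes called at all, a count of 0 among 11 says little about clock genes. On a single array, 1 clock probe had a p under 0.01 on array 1 (background 5.95%) and 1 on array 2 (background 6.29%), and both were Arntl, with LO higher on array 1 and lower on array 2. Arntl was thus the 1 clock probe called towards the same dye, which 2.64% of all probes were.

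Clock genes differed in how well they were measured. Only Per1 and Dbp were well above background in all 4 channels (2 pools on 2 arrays), 18.2% of the clock probes beside 37.5% of all probes. Arntl, Cry1 and Cry2 were above it in 3 channels, one Per3 probe in 2, and the remaining 5 probes (45.5%, near the 41.1% of all probes) in none. Signals below are the deposited processed signals in arbitrary units and are compared only within a probe.

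**Figure D1:**
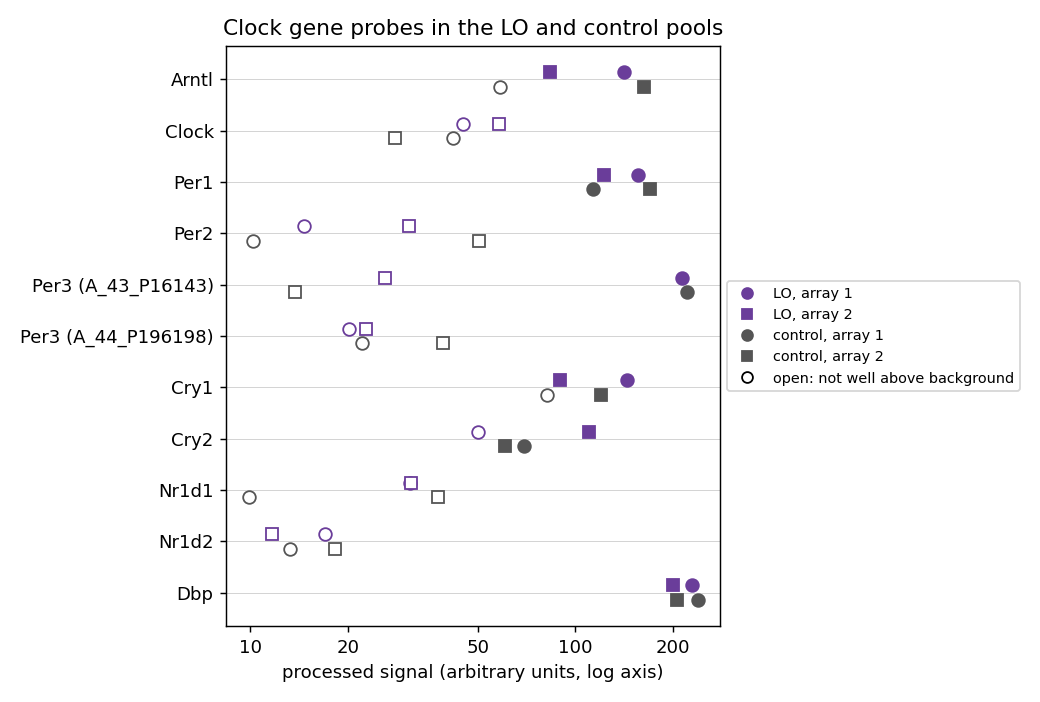
Processed signal (arbitrary units, log axis) of each clock gene probe in the LO pool (purple) and the control pool (grey) on array 1 (circles) and array 2 (squares), with open symbols where the channel was not well above background. The 4 values of Dbp lay together between 199 and 237, whereas the Per3 probe A_43_P16143 was 213 and 220.0 on array 1 and 25.9 and 13.8 on array 2.

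Arntl, the activator that pairs with CLOCK, changed sides with the dye. Its signal was 140.9 in LO and 58.7 in control on array 1, the latter not well above background, and 83.4 in LO and 163 in control on array 2. On each array the Cy5 channel was the brighter one, and the ranges of the pools overlapped. LO over control came to 2.40 on array 1 and to 0.512 on array 2, or 1.26 ± 0.36 and -0.96 ± 0.31 on the log2 scale (spot error), each past the spot-model threshold of 0.01. The mean over both arrays was 0.15 on the log2 scale with an SD between arrays of 1.57, a 1.11-fold ratio with a 95% interval of the spot error from 0.805 to 1.53. Its dye part, the log2 excess of Cy5 over Cy3 that remained when the sign of array 2 was turned, was 1.11 (2.16-fold). With background correction by normexp and loess normalisation, the mean of Arntl was -0.13. Clock, the partner of Arntl, was not well above background in any channel, at 45.0 in LO and 42.0 in control on array 1 and 58.3 and 27.8 on array 2, so no fold is given.

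Of the period genes, whose products inhibit ARNTL and CLOCK, Per1 was the well measured one. Its signal was 156 in LO and 113 in control on array 1 and 122 in LO and 169 in control on array 2. The pools overlapped, and again the Cy5 channel was the brighter one on each array. The ratio was 1.38 on array 1 and 0.721 on array 2, and the mean was 0.996-fold, with a 95% interval of the spot error from 0.769 to 1.29 and an SD between arrays of 0.66 (log2). Among the 15386 probes above background in all 4 channels, 6.08% had a smaller LO part (the size of the mean over both arrays) than Per1, and 88.2% had a smaller dye part. Per2 was not well above background in any channel, at 14.6 in LO and 10.2 in control on array 1 and 30.7 and 50.5 on array 2.

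Of the members above background in any channel, Per3 differed most between the arrays themselves. The probe A_43_P16143 read 213 in LO and 220.0 in control on array 1, both well above background, and 25.9 in LO and 13.8 in control on array 2, neither above it. The pools differed by less than the spot error on the array where both were measured (ratio 0.970), while the signal of both pools dropped between arrays of the same RNA. With each dim channel set to the lowest signal that the software rated above background, array 1 was at least 4.13-fold brighter than array 2, a gap larger than in 99.7% of the 18241 probes that were above background in both pools on at least one array. In all, 48 of those probes had a gap this large, 27 of them brighter on array 1 and 21 on array 2. The other Per3 probe, A_44_P196198, was dim on both arrays, array 1 included, at 20.1 in LO and 22.0 in control there and 22.6 and 39.1 on array 2.

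The bright Per3 reading on array 1 had bright neighbours. Among 42 spots within 4 rows and 2 columns, 3 were brighter on array 1 by more than 0.5 on the log2 scale, and all of them touched each other or the Per3 spot. The spot 2 rows away in the same column differed by -2.09 (array 2 minus array 1, mean of both pools), the spot 1 row and 1 column away by -1.73, and the spot between by -0.52. The other 39 neighbours lay between -0.34 and 0.38. Such neighbours were not particular to Per3, since by the same count the Cry2 spot had 9 and the Per1 spot 1. At the Per3 spot the local background was marked as an outlier on array 1, as it was for 2.76% of the features there, and not on array 2. The part of this patch in the Per3 signal was not tested.

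**Figure D2:**
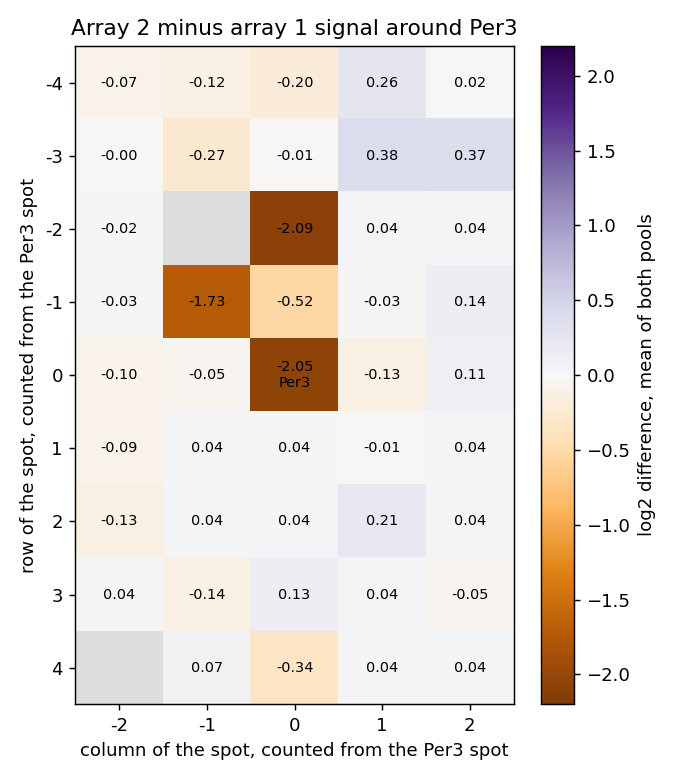
Difference in signal between the arrays (array 2 minus array 1, log2, mean of both pools, dim channels set to the lowest signal above background) for the spots around Per3 probe A_43_P16143, by row and column counted from its spot, with grey squares where a spot was flagged or a control. Per3 and 3 nearby spots were brighter on array 1, and the other 39 neighbours lay between -0.34 and 0.38.

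The cryptochromes, which act with the PER proteins, leaned to opposite dyes, though neither had a spot-model p under 0.01 on either array. Cry1 read 144 in LO and 81.8 in control on array 1, the latter not well above background, and 89.9 in LO and 120 in control on array 2. Cry2 read 50.1 in LO, not well above background, and 69.3 in control on array 1, and 110.1 in LO and 60.9 in control on array 2. Cry1 was thus brighter in Cy5 on both arrays (dye part 0.61, 1.53-fold) and Cry2 brighter in Cy3 on both (dye part -0.66, 1.58-fold in favour of Cy3), and within each gene the pools overlapped. LO over control came to 1.76 on array 1 and 0.752 on array 2 for Cry1, a mean of 1.15-fold with a 95% interval of the spot error from 0.823 to 1.61. For Cry2 it came to 0.724 on array 1 and 1.81 on array 2, a mean of 1.14-fold with an interval from 0.770 to 1.70. On the log2 scale (spot error), Cry1 was 0.82 ± 0.36 on array 1 and -0.41 ± 0.34 on array 2. Cry2 was -0.47 ± 0.46 on array 1 and 0.85 ± 0.36 on array 2.

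The nuclear receptors that repress Arntl were not measurable. Nr1d1 read 31.0 in LO and 9.89 in control on array 1 and 31.2 and 37.8 on array 2. Nr1d2 read 17.0 in LO and 13.2 in control on array 1 and 11.7 and 18.2 on array 2, and the software had set its log ratio to 0 on both arrays. None of these channels was well above background, so differences between the pools in these genes were not detectable on these arrays.

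Dbp, the output factor, was the member with the closest readings. Its signal was 228 in LO and 237 in control on array 1 and 199 in LO and 206 in control on array 2. LO was slightly below control on both arrays, by less than the spot error. The ratio was 0.962 on array 1 and 0.969 on array 2, and the mean was 0.965-fold with a 95% interval from 0.768 to 1.21. The dye part of Dbp, -0.0054 on the log2 scale, was larger than in only 1.96% of the 15386 probes above background in all 4 channels.

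**Figure D3:**
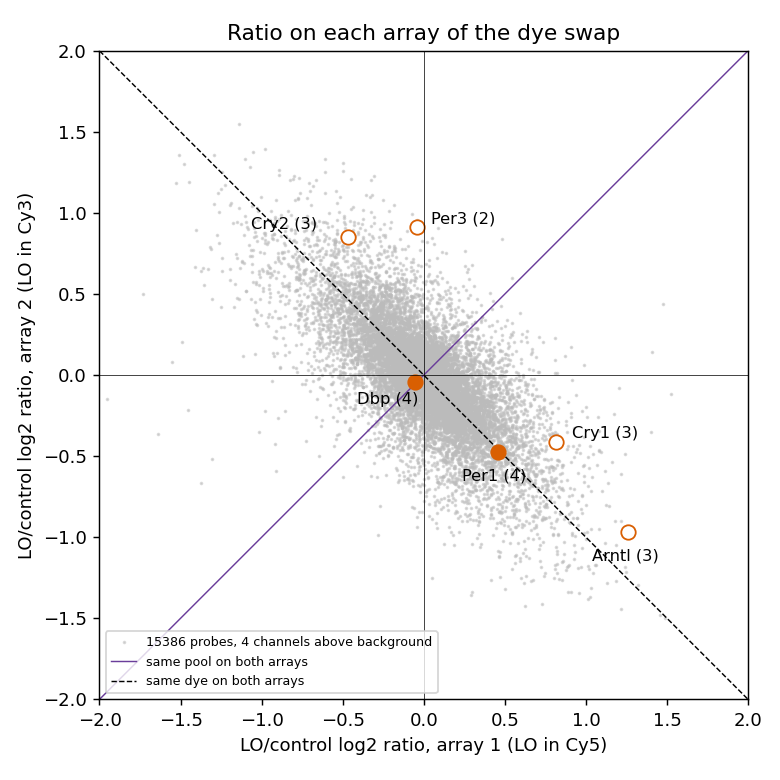
LO/control log2 ratio on array 1 (x axis, LO in Cy5) against array 2 (y axis, LO in Cy3) for the 15386 probes above background in all 4 channels (grey, 1 of them outside the axes) and for the 6 clock probes above it in at least 2 channels (orange, with that number of channels in brackets, filled for 4). Arntl, Cry1 and Per1 lay to the lower right and Cry2 to the upper left, along the dashed line where the same dye is brighter on both arrays, and Dbp lay near the centre.

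The ratio changed direction between the arrays in clock probes about as often as in all probes. The ratio pointed in opposite directions on the 2 arrays in 7 of 11 clock probes (63.6%), beside 63.7% of all probes, 5 towards Cy5 and 2 towards Cy3. This count uses the sign alone. Of the 7, only Arntl had a spot-model p under 0.01 on both arrays, and Nr1d1 and Per2 were dim in all channels. LO was higher on both arrays in 1 clock probe (Clock) and lower on both in 2 (Dbp and the dim Per3 probe), and Nr1d2 had a ratio of 0. The median LO/control log2 ratio was 0.15 over the 11 probes beside 0 over all probes, and -0.03 over Dbp and Per1 beside -0.0026 over all probes above background in all 4 channels. Across the 41009 probes, the LO/control ratios of the arrays had a Pearson correlation of -0.67 and a Spearman correlation of -0.66, which describes probes that share pools, spots and dyes. The titles and methods state the dyes, so the direction LO over control was kept. Whether both arrays carried the dyes as stated was not tested. If array 2 carried them as array 1 did, each dye part would be the LO over control mean. If array 1 carried them as array 2 did, that mean would be the dye part with its sign reversed. The dye part was 1.11 (2.16-fold) for Arntl and 0.47 (1.38-fold) for Per1, both in favour of Cy5. For Cry1 it was 0.61 and for Cry2 -0.66, the latter in favour of Cy3. For the Per3 probe that was dim on array 2 only it was -0.48. That value rests mostly on the array 2 ratio of dim channels, 0.91 ± 1.29 on the log2 scale (spot error). For the 11 well measured probes of the pathway genes below, the dye part lay between -0.37 and 0.36.

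No other gene of the clock pathway was called either. Of 26 such genes on the list, 14 had a probe here (19 probes), 11 probes were above background in all 4 channels, and 0 were called higher, lower or towards the same dye (backgrounds of 0.00975%, 0.0122% and 2.64%). None had a p under 0.01 on either array. The ratio pointed in opposite directions on the arrays in 13 of 19 probes (68.4%), LO was lower on both arrays in 6 (31.6%, beside 8.64% of all probes) and higher on both in 0 (beside 9.39%), and the median log2 ratio was -0.06. The 6 were probes of Bhlhe41, Btrc, Csnk1a1 (both its probes), Csnk1d and Nampt, each with a difference within its spot error, and the share was not tested. The plot of ratios by gene shows those with at least 3 channels above background.

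Among the kinases that phosphorylate PER proteins, the mean log2 ratio was -0.04 and -0.05 for the 2 probes of Csnk1a1, -0.11 and -0.09 for those of Csnk1d and -0.04 and 0.05 for those of Csnk1e. Gsk3b, a kinase that acts on several clock proteins, was printed on 10 spots and had a mean of -0.01, with signals of 794 in LO and 774 in control on array 1 and 774 and 807 on array 2. Nfil3, which represses through the D-boxes that DBP activates, read 249 in LO and 206 in control on array 1 and 193 and 252 on array 2, a mean of -0.06. Its pools overlapped, and Cy5 was brighter on each array. The E-box repressors Bhlhe40 and Bhlhe41 had means of 0.02 and 0.06, and the second Bhlhe41 probe was not well above background. Nono, which binds PER proteins, read 1752 in LO and 1743 in control on array 1 and 1866 and 1922 on array 2, with a mean ratio of 0.988-fold. These 11 probes lay between -0.11 and 0.06, and none differed between the pools beyond its spot error.

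**Figure D4:**
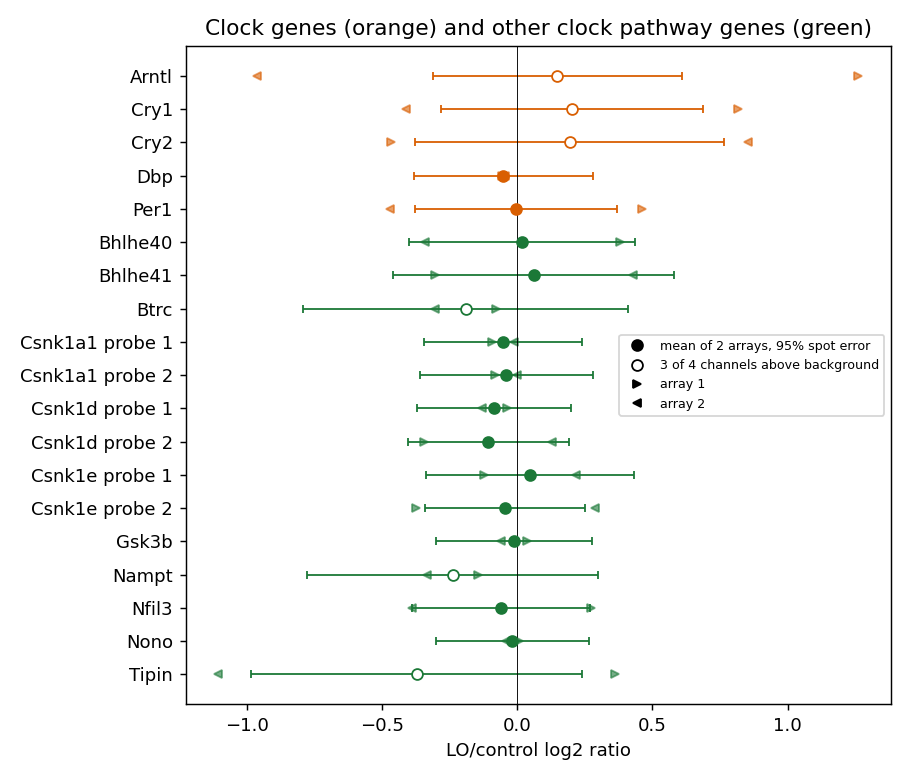
Mean LO/control log2 ratio over both arrays (circles, open for 3 of 4 channels above background) with the 95% interval of the spot error, and the ratio of each array (triangles), for clock genes (orange) and other clock pathway genes (green) with at least 3 channels above background. All intervals held 0, and the arrays of Arntl stood farthest apart, at 1.26 and -0.96.

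The marker genes of blood cells gave medians between -0.07 and 0.11 for the mean over both arrays. Median log2 ratios were -0.07 for red cell (3 of 8 listed genes had a probe), 0.11 for neutrophil, 0.08 for T cell, 0.10 for B cell (a single gene) and 0.02 for platelet markers. Red cell genes differed between the arrays. Alas2 read 941855 in LO and 465183 in control on array 1 and 360662 and 824508 on array 2. Hbb was also higher in LO on array 1 and lower on array 2, and both Slc4a1 probes went the other way. Heart and liver markers, which could enter with the blood, were mostly dim. Of 6 heart probes, 1 of the 2 Actc1 probes was above background in all 4 channels, and Myh6 and Myl2 were above it in none. Of 6 liver probes, 1 of Alb and 1 of Serpina1 were above it in all 4 channels, and Ttr and another Alb probe in none. The part of cell makeup in the clock gene values was not tested.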

How the data were processed

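RNA of 2 pools (LO and control, 6 rats each) was hybridised on 2 arrays as a technical dye swap, counted as 1 replicate. The authors extracted signals with Agilent Feature Extraction (version 11.0.1.1 in the submitters' processing notes). The deposited scanner output holds intensities in arbitrary units (raw medians, local backgrounds and dye-normalized processed signals), the log10 ratio of Cy5 over Cy3 with its error, the p-value of the spot error model, and flags. The deposited value table equalled the log10 ratio of the processed signals within 5e-07 and was used as an alternative. Columns were joined by the sample of each file.

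Spots of the array's own controls were not used, nor were 338 features with a non-uniformity or population-outlier flag, none of them in a clock gene. Spots of a probe were averaged. Each ratio was given the direction LO over control from the dye assignment in the titles, on the log2 scale. The LO part was the mean, and the dye part the half-difference, of the 2 arrays. A probe was called at p under 0.01 on both arrays towards the same pool. The 95% interval was taken from the deposited error of the log ratio on each array (normal, as the software's model). It covers spot error only, not the spread between rats. Median processed signals ran from 53.6 to 62.8 and 44.8% to 50.3% of probes were well above background. No spot was saturated. The number of arrays limits the precision. Where both pools were dim, no fold is given as a result. The log ratios of dim probes enter only the direction counts, the medians and the alternatives.

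Every member is named. Other pathway genes are given as counts, with the genes past the threshold or, where none passed, up to 8 genes above background in all 4 channels in alphabetical order. The members and lists were chosen with earlier results of these data known. Symbols came from RefSeq accessions in the files through a GRCr8 table (10767 probes with a symbol). The array design names the older rn4 build, and no probe coordinates are given. Calls were tested on simulated data with independent spot error on each array and no dye effect. The ratios of the real arrays were negatively correlated, so the simulation checks the calling step only and not its performance on these arrays. Python 3.11.15, numpy 2.4.6, pandas 2.3.3, scipy 1.17.1, matplotlib 3.10.9, R 4.3.3 and limma 3.58.1 (normexp, offset 50, with loess) were used.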

Additional observations from a re-analysis of the deposited data

How the results depend on the processing

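The count of clock probes higher in LO was 0 and rose to 1 (Arntl) with array 1 alone, and the count lower in LO was 0 and rose to 1 (Arntl again) with array 2 alone. The call of Arntl towards the same dye was lost (0 probes) at p under 0.001, with a Benjamini-Hochberg adjusted p under 0.05 and with all 4 channels required above background. All other counts of clock and pathway calls stayed at their value under the alternatives run. The median LO/control log2 ratio of the clock probes, 0.15, ran from -0.27 with array 2 alone to 0.17 with median-centred signals, was 0.10 with array 1 alone, -0.03 over probes above background in all 4 channels and 0.07 with normexp and loess, all within the median SD between arrays of 0.68, so its sign is not settled. The median over probes with 3 or 4 channels above background, an alternative chosen after seeing the data, was 0.15. Per2, dim in all channels, went from -0.10 to 1.18 with median-centred signals, Nr1d2 from 0 to -0.14 with processed signals and 0.07 with normexp, and Dbp from -0.05 to -0.07. Nr1d2 had no value with median-centring. The sign of the mean changed in 4 of 11 clock probes with normexp and loess (Arntl, Per1, Per2 and the dim Per3 probe). It changed in 4 with array 1 alone, in 3 with array 2 alone and in 1 of 10 with median-centred signals. With the value table, processed signals or flagged features kept, it changed in 0. No paired analysis was possible because both arrays hold the same pools. Signals near background limit all members but Per1 and Dbp, and the arrays cannot show a difference between rats.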

Other observations

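The surroundings of the other 10 clock spots were compared between arrays in the same way (array 2 minus array 1, log2, mean of both pools, dim channels set to the lowest signal above background). For 4 of them, Nr1d1, Nr1d2, Per2 and the dim Per3 probe, all channels lay at that floor, so that the value was fixed by it. The other 6 differed by -0.20 to 0.47, and none of the 10 had its local background marked as an outlier on either array. Of their 422 neighbours, 10 were brighter on array 1 by more than 0.5, 9 of them around Cry2 (down to -1.09) and 1 near Per1 (-0.86), and 5 were brighter on array 2, the most by 0.85 near Cry1. Cry2 itself went the other way, at 0.47. At the Per3 spot, the raw median on array 1 was 181 in Cy3 and 153 in Cy5, and on array 2 it was 150 and 79, over local backgrounds of 70 and 58.5 on array 1 and 66 and 59.5 on array 2.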
